A study of Mus musculus with 2 samples.

Results

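Of the 21014 genes in the deposited single-cell tables of mouse lung stroma, 10 genes of the NF-kB system are described here. They were taken by name, with earlier results of these data known, and matched from Ensembl identifiers to symbols. Nfkb1, Nfkb2, Rela and Relb encode subunits of the transcription factor, and Nfkbia, Nfkbiz and Bcl3 encode inhibitor proteins of the IkB family. Tnfaip3, Birc3 and Tnfaip2 are genes induced by tumour necrosis factor. All 10 had counts in both libraries. The cells were lung fibroblastic stroma of C57Bl/6J mice kept for 16 weeks on a high fat diet (HFD) or on normal chow (NC), with a single 10x Genomics library for each diet. The labels used here do not give age, sex or the number of animals behind a library. Because each diet has a single library, no test between diets is possible, and every interval below is a 95% counting interval. Those of levels and ratios leave out the spread between cells and may be too narrow.

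NF-kB dimers wait in the cytoplasm bound to IkB proteins. Cytokine and pattern recognition receptors activate a kinase complex that marks the inhibitor for breakdown, and the freed dimers enter the nucleus and switch on genes of inflammation. Among these genes are the inhibitors themselves, so the response limits its own length. In lung stroma the pathway is known for driving chemokines and cytokines such as Il6 in fibroblasts.

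Cells with 500 or more genes and mitochondrial counts of 10% or less were kept, 6089 from HFD and 8140 from NC, with medians of 10045 and 7524 counts per cell. HFD cells were thus 1.34 times as deep by the median. The libraries shared 16 cell barcodes. Classes come from the deposited annotation, and each holds 250 to 3999 kept cells per library. Slc7a10, the gene of Asc-1, was at 218 and 138 CPM (a gene's counts per 1000000 counts of the summed cells of a class) in the Asc1 class of HFD and NC, and at most at 67.8 CPM in any other class. Gas6 did not single out its class. Its level there was 250.3 and 309 CPM, against 279 and 277 CPM in the Pi16 class. The class labelled pericytes was dominated by smooth muscle genes, whose 5 markers summed to 27187 and 26295 CPM, against 528 and 366 CPM for 8 pericyte markers. These 8 markers summed to 517 and 498 CPM in myofibroblasts, so they did not single out the class labelled pericytes. Cells with pericyte markers were not taken out of myofibroblasts. Of 15 immune markers, 11 had a count in HFD and 12 in NC pooled fibroblasts (the Asc1, Gas6, Pi16 and myofibroblast classes together), with sums of 49.4 and 55.1 CPM, and Ptprc, Itgam and Cd3e were at 0 in both. Of 9 epithelial markers, 7 had a count in each library, with sums of 37.1 and 26.9 CPM, of which Scgb1a1 gave 31.2 and 21.9, and Epcam and Sftpc were at 0. Of 7 endothelial markers in the tables, 4 and 6 had a count, with sums of 23.4 and 24.4 CPM, nearly all Ramp2, and Pecam1 was at 0. Of 4 mesothelial markers, 3 had a count in each, with sums of 2.58 and 3.33 CPM, and Msln was at 0. The 7 genes named at 0 had no count in any of the 6971 HFD and 9015 NC cells deposited, whereas other markers of the same cell types, such as Lyz2 and Kdr, had counts. Whether cells were selected on those genes before deposit is not given in the sources used here, so their zeros are not read as evidence on other cell types. How such cells bear on the values below was not tested.

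Several of the 10 genes are themselves known targets of NF-kB, so their promoters are shown for the 4 in which a kB consensus was found. The windows run from 250 bases before to 50 bases after a transcript start and come from RefSeq on GRCm38.p6, an older build than the mm39 named for the data. A window was found for 7 of the 10 genes: Nfkb2, Rela, Nfkbia, Tnfaip2, Tnfaip3, Bcl3 and Birc3. Each is written 5′ to 3′ on the strand of the gene, with matches to the consensus, on either strand, in capitals.
Nfkbia, chr12:55492598-55492897, minus strand: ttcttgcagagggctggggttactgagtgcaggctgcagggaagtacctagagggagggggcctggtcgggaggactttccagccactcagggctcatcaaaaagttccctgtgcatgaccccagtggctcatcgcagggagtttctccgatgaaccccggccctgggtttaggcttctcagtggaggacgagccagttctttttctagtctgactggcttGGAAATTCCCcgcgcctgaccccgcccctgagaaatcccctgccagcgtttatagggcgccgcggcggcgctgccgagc
Nfkb2, chr19:46304487-46304786, plus strand: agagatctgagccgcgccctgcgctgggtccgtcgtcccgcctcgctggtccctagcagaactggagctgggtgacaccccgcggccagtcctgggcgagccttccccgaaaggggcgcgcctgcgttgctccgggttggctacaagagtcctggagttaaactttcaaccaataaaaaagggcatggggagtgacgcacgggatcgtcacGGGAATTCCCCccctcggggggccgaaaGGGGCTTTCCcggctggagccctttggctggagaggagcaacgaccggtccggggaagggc
Tnfaip3, chr10:19015361-19015660, minus strand: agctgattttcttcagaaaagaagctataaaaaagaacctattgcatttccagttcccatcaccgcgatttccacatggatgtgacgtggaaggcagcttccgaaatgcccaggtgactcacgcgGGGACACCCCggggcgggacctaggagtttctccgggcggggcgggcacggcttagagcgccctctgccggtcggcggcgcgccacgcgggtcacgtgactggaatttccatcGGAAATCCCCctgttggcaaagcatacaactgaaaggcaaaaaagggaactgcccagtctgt
Bcl3, chr7:19822706-19823005, minus strand: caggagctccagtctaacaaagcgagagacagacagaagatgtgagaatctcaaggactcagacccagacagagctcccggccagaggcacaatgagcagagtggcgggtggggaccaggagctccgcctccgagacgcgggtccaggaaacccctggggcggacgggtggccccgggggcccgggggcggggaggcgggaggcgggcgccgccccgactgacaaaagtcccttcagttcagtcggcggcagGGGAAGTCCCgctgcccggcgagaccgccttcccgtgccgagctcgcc
In Nfkbia the match, GGAAATTCCC, begins 29 bases before the start. In the Nfkb2 window shown, 2 overlapping matches begin 39 and 38 bases before the start and another, GGGGCTTTCC, begins 11 bases before it. In Tnfaip3 the matches begin 125 and 12 bases before the start. In Bcl3 the match, GGGAAGTCCC, begins 2 bases after it. Nfkb2 has 2 further windows at other starts, which overlap each other and both hold GGGACTTTCC. The windows of Rela, Tnfaip2 and Birc3 and a second window of Tnfaip3 held no match, which says only that these letters were not found there. In all, 4 of 7 genes and 6 of their 10 windows held a match, against 4.51% of 32851 RefSeq windows of the same length. A match is a run of letters and not a measured binding site.

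The comparison of the diets asked whether transcripts of these genes differed in the pooled fibroblasts, with 5493 HFD and 7890 NC cells. Levels were lower in HFD for 9 of the 10 genes and higher for Tnfaip2. The ratio of HFD to NC was lowest for Nfkb1, and it lay past a ratio of 1.5 for Nfkb1, Tnfaip3 and Bcl3. These 3 of 10 genes stand against 4.75% of 13422 measured genes lower by that size, and 0 of 10 against 5.45% higher by it. As the genes were chosen with earlier results of these data known, the contrast with all genes is a description and no independent support. The median log2 ratio of the 10 genes was −0.49, against 0.02 over all measured genes, of which 46.3% were below a ratio of 1. Several genes lay close to the threshold of 0.667, with Bcl3 at 0.666 just inside it and Nfkb2 at 0.669 and Nfkbia at 0.682 just outside. The count of 3 therefore moves with small changes of scale. With TMM scaling it was 4, with Nfkb2 added. Without the Gas6 class it was 1, Nfkb1. The pooled values also mix the classes in unlike shares, as Gas6 fibroblasts were 1095 of the 5493 HFD and 2002 of the 7890 NC cells. With the fibroblast classes weighted equally the count was 2, Nfkb1 and Tnfaip3.

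**Figure D1:**
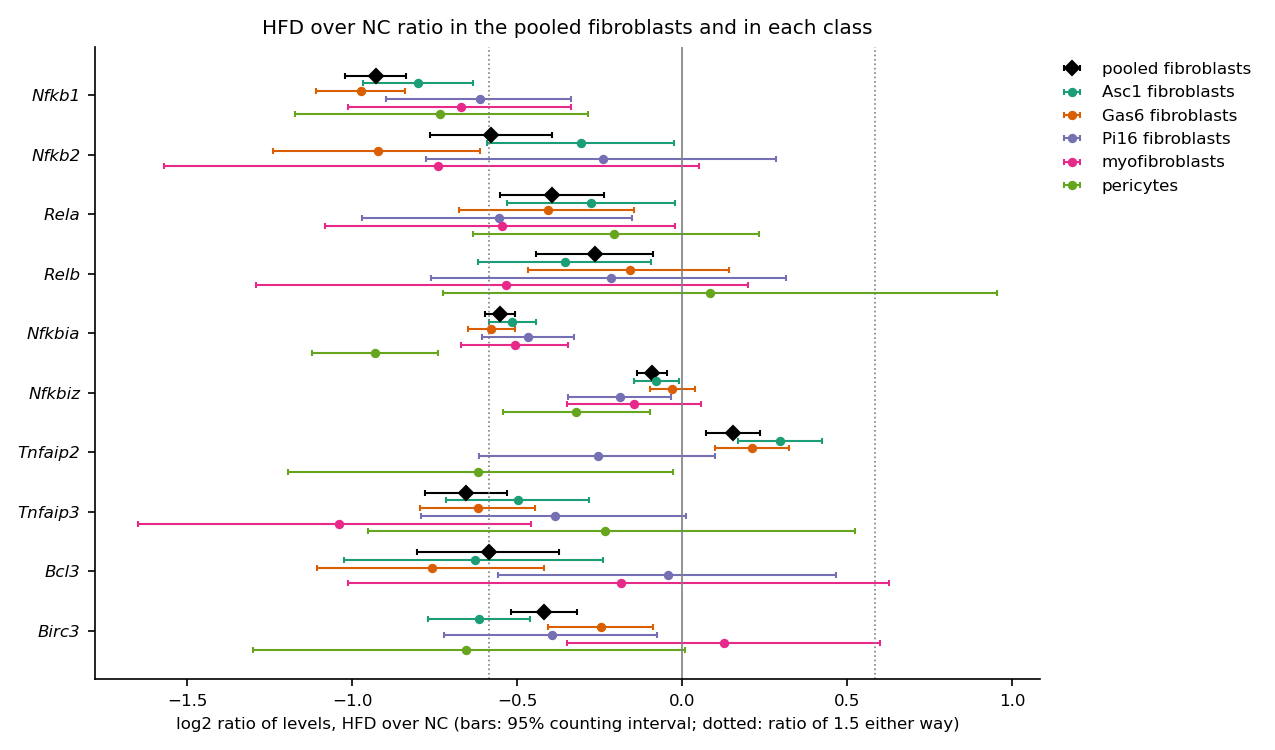
HFD over NC ratio of each gene on a log2 axis, in the pooled fibroblasts (black diamonds) and in each class (coloured points), with bars for 95% counting intervals and dotted lines at a ratio of 1.5 either way; a class with under 50 effective counts of a gene has no point. Nfkb1 lies past the dotted line in the pooled fibroblasts (0.525), the black diamond of Nfkbiz lies close to 0 and that of Tnfaip2 above it (1.11).

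Among the subunits, Nfkb1 differed most. It encodes a precursor that is processed to a DNA-binding subunit. In the pooled fibroblasts it was at 109 CPM in HFD and 207 CPM in NC, a ratio of 0.525 (0.492 to 0.560). Only 1.42% of measured genes had a lower ratio. Within classes, HFD and NC levels of Nfkb1 were 80.002 and 139 CPM in Asc1, 147 and 289 CPM in Gas6, and 90.4 and 138 CPM in Pi16 fibroblasts. They were 156 and 248 CPM in myofibroblasts and 39.7 and 66.0 CPM in the class labelled pericytes. The HFD level was below the NC level in every class, and each of the 5 ratios, from 0.509 in Gas6 to 0.653 in Pi16 fibroblasts, was past 1.5 with an interval below 1. A stricter cell filter ended that call in myofibroblasts, at 0.682, and in the class labelled pericytes, at 0.779. Without the 10 cells of each library with most counts of Nfkb1 the pericyte ratio was 0.726, though those cells held 29.1% of the HFD and 43.0% of the NC counts.

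Nfkb2 encodes the precursor of the non-canonical pathway, which pairs with the protein of Relb. Nfkb2 was at 30.3 CPM in HFD and 45.3 CPM in NC in the pooled fibroblasts (ratio 0.669, 0.589 to 0.760). Gas6 fibroblasts had the lowest ratio, at 28.3 and 53.7 CPM (0.528, 0.424 to 0.653), and myofibroblasts, with few counts, had 0.599 (0.337 to 1.03). The ratio was 0.809 (0.664 to 0.983) in Asc1 fibroblasts and 0.847 (0.584 to 1.22) in Pi16 fibroblasts. The Gas6 interval ended below the point where the Asc1 interval began, and the difference between classes was not tested.

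Rela, which encodes the main transactivating subunit, was at 43.5 CPM in HFD and 57.1 CPM in NC (0.761, 0.682 to 0.848). Its 4 fibroblast classes had ratios from 0.680 in Pi16 to 0.826 in Asc1, with overlapping intervals. Relb was at 35.0 and 42.0 CPM (0.832, 0.735 to 0.941), the smallest gap of the 4 subunits. Its ratio was 0.782 (0.651 to 0.937) in Asc1 fibroblasts, and the intervals of the other classes included 1. Rel, the remaining subunit gene, was not among the 10 and had a ratio of 0.880 (0.779 to 0.993).

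Nfkbia encodes the inhibitor that is broken down on activation and made again as a target of the factor it holds. It was at 498 CPM in HFD and 731 CPM in NC (0.682, 0.661 to 0.703). HFD and NC levels were 472 and 674 CPM in Asc1, 556 and 831 CPM in Gas6, and 368 and 509 CPM in Pi16 fibroblasts. They were 688 and 978 CPM in myofibroblasts and 190.5 and 363 CPM in the class labelled pericytes. The 4 fibroblast classes were close to each other, with ratios from 0.670 to 0.723. The class labelled pericytes was lower, at 0.525 (0.460 to 0.599), and its interval did not reach those of the fibroblast classes.

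Nfkbiz encodes a nuclear IkB protein that acts as a coactivator for a subset of target genes, Il6 among them. It was nearly level, at 558 CPM in HFD and 595 CPM in NC (0.939, 0.910 to 0.969). In Gas6 fibroblasts it was at 666 and 680 CPM, and the interval of the ratio, 0.934 to 1.03, included 1. Its lowest ratio was 0.801 (0.687 to 0.936), in the class labelled pericytes. Bcl3 encodes another nuclear IkB protein, which binds dimers of the processed subunits. It was at 22.1 CPM in HFD and 33.2 CPM in NC (0.666, 0.573 to 0.773). Asc1 fibroblasts, at 15.8 and 24.4 CPM, and Gas6 fibroblasts, at 24.1 and 40.8 CPM, were lower in HFD past a ratio of 1.5. Pi16 fibroblasts, at 32.7 and 33.7 CPM, and myofibroblasts, at 32.9 and 37.5 CPM, were not, and both their intervals included 1.

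Tnfaip3 encodes a ubiquitin-editing enzyme that shuts down signalling from cytokine receptors. It was at 65.4 CPM in HFD and 103 CPM in NC (0.635, 0.583 to 0.692). HFD and NC levels were 51.9 and 73.2 CPM in Asc1, 94.9 and 146 CPM in Gas6, 47.4 and 61.9 CPM in Pi16 fibroblasts and 48.4 and 99.6 CPM in myofibroblasts. All 4 fibroblast classes were lower in HFD. The ratio was lowest in myofibroblasts, at 0.486 (0.319 to 0.728), and the Pi16 interval, 0.577 to 1.01, included 1.

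Birc3 encodes a ubiquitin ligase of tumour necrosis factor receptor complexes. It was at 103 CPM in HFD and 138 CPM in NC (0.748, 0.697 to 0.802). The classes differed in this gene. Asc1 fibroblasts were at 99.1 and 152 CPM (0.652, 0.586 to 0.726), Gas6 fibroblasts at 123 and 146 CPM (0.843, 0.755 to 0.940) and myofibroblasts at 102 and 93.9 CPM (1.09, 0.785 to 1.52). The interval of Asc1 fibroblasts ended below those of Gas6 fibroblasts and myofibroblasts, and the differences between classes were not tested.

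Tnfaip2, a tumour necrosis factor-induced gene whose protein is related to the exocyst, went the other way. It was at 188 CPM in HFD and 169 CPM in NC (1.11, 1.05 to 1.18). It was higher in HFD in Asc1 fibroblasts, at 191 and 156 CPM (1.23, 1.12 to 1.34), and in Gas6 fibroblasts, at 273 and 236 CPM (1.16, 1.07 to 1.251). In Pi16 fibroblasts it was at 61.7 and 73.6 CPM (0.838, 0.653 to 1.07). In myofibroblasts it had 34 HFD and 22 NC counts, too few for a ratio.

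**Figure D2:**
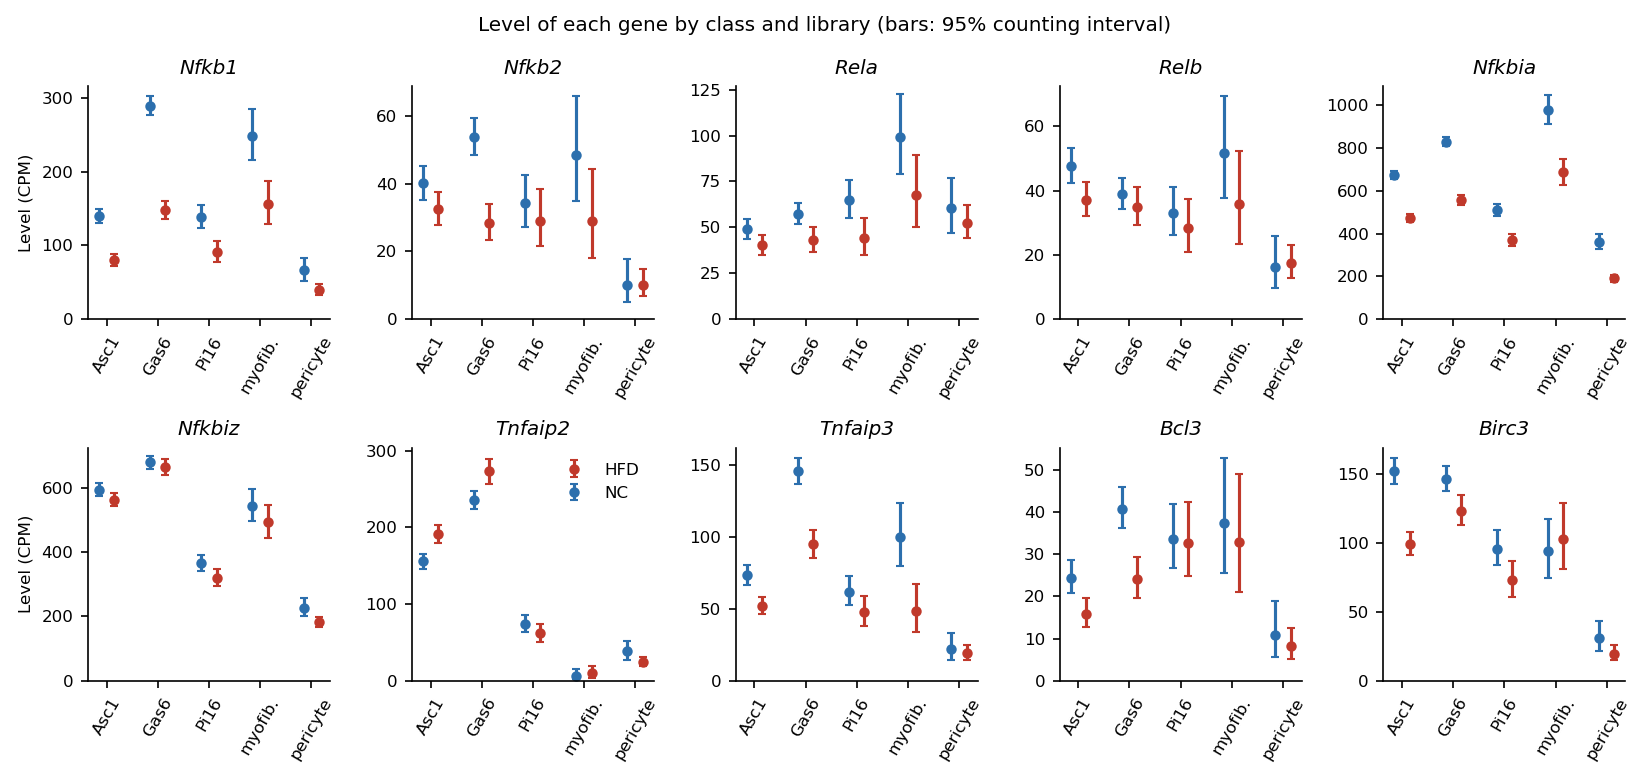
Level of each gene in CPM in the 5 classes, with HFD in red and NC in blue, points for the level summed over the cells of a class and bars for 95% counting intervals; each panel has its own axis. The class labelled pericytes is lowest for every gene but Rela and Tnfaip2, and the NC point lies above the HFD point for Nfkb1 in all 5 classes.

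Across classes, the class labelled pericytes had the lowest level in both libraries for 8 of the 10 genes. Rela was lowest in Asc1 fibroblasts and Tnfaip2 in myofibroblasts. Tnfaip2 had the widest range. Gas6 fibroblasts were 28.5 times as high as myofibroblasts in HFD and 36.1 times in NC, though the myofibroblast levels of 9.57 and 6.54 CPM rest on the few counts given above. Nfkbia had the same order in both libraries, from myofibroblasts through Gas6, Asc1 and Pi16 fibroblasts to the class labelled pericytes, with no overlap between neighbouring intervals. Nfkbiz also kept its order, with Gas6 fibroblasts highest and Asc1 fibroblasts and myofibroblasts not separated by their intervals. For Nfkb1, Gas6 fibroblasts and myofibroblasts led in both libraries without being separated, and Asc1 and Pi16 fibroblasts were not separated either. Rela was highest in myofibroblasts, at 67.9 and 98.98 CPM, apart from its neighbour in NC alone. Tnfaip3 was highest in Gas6 fibroblasts in both. For Nfkb2, Relb, Bcl3 and Birc3 the leading class differed between the libraries and its interval overlapped that of the next class.

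Within single classes, 3 of 10 measured genes were lower by a ratio of 1.5 in Asc1 fibroblasts, against 5.46% of all genes measured there. The counts were 4 of 10 in Gas6 fibroblasts against 5.91%, 1 of 10 in Pi16 fibroblasts against 5.88%, 3 of 9 in myofibroblasts against 7.94% and 4 of 8 in the class labelled pericytes against 6.77%. In no class was any of the genes higher by that size, against 4.88, 6.08, 5.7, 7.62 and 11.4% of all genes in the same order. The medians of log2 ratios were −0.43, −0.49, −0.32, −0.53 and −0.47, against −0.00, 0.02, 0.01, 0.00 and 0.08 for all genes. The classes come from the same 2 libraries and are not replicates. Immune markers in myofibroblasts summed to 150.4 CPM in HFD and 92.7 CPM in NC. Of the genes known to respond to tissue handling, 4 of 21 measured in myofibroblasts and 7 of 22 in the class labelled pericytes were lower in HFD by a ratio of 1.5, and 12 and 16 were below a ratio of 1. Their part in these values was not tested. In the class labelled pericytes a few cells carried much of each value. In NC, the 10 richest cells held 30.1% of the counts of Nfkbia, 43.0% of Nfkb1, 60.3% of Birc3 and 75.0% of Tnfaip2. In HFD they held 21.4, 29.1, 52.5 and 52.1% in the same order. Without the 10 richest cells of each library, or with a stricter cell filter, 1 of the 4 genes, Nfkbia, was lower by that size there. In Pi16 fibroblasts leaving out such cells gave 4 genes, Nfkb1, Rela, Tnfaip3 and Birc3. There the 10 cells held 39.4% of HFD and 20.3% of NC counts of Tnfaip3, 25.8 and 16.8% of Rela and 27.6 and 14.8% of Birc3. In both classes the cut took unequal parts of the HFD and NC counts, so the ratios after it are not like for like.

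The lower levels went with fewer cells that had a count. Nfkb1 had a count in 20.2% of HFD (19.1 to 21.2%) and 30.01% of NC pooled fibroblasts (29.0026 to 31.04%), although HFD cells were deeper. A cell with a count held 5.68 raw counts of Nfkb1 on average in HFD and 5.73 in NC, not scaled to the greater depth of HFD cells. Thinning every cell to 2000 counts gave all cells the same summed count and left out 3 HFD and 25 NC cells. For rare genes, the sum of squared counts over the summed counts was 4.85 in HFD and 3.98 in NC, so equal counts need not be equal molecules. By these values 2000 counts would stand for fewer molecules in HFD than in NC, which would lower the thinned HFD shares. Whether the thinned cells are at equal depth was not tested. Nfkb1 was then found in 10.97% of HFD (10.2 to 11.8%) and 18.4% of NC cells (17.5 to 19.2%). The thinned shares were 37.5 and 48.8% for Nfkbia, against 53.6 and 63.6% unthinned, and 6.45 and 10.2% for Tnfaip3, against 12.7 and 18.6%. They were 11.04 and 14.8% for Birc3, against 21.3 and 27.2%, and 44.5 and 48.4% for Nfkbiz, against 65.6 and 68.3%. For these 5 genes, and for Nfkb2, Rela and Bcl3, the NC share was higher after thinning and the intervals of the libraries did not overlap. For Relb, at 4.59 and 5.61%, they did. Tnfaip2 was found in 17.7 and 17.9% of cells, with overlapping intervals, against 32.6 and 34.1% unthinned. A cell with a count held 6.08 raw counts of Tnfaip2 on average in HFD and 4.13 in NC before thinning, likewise not scaled to depth. No class lacks most of these genes, but Tnfaip2 in myofibroblasts gives a low point of 2.35 and 1.95% of unthinned cells, at median depths of 6617 and 4816 counts.

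**Figure D3:**
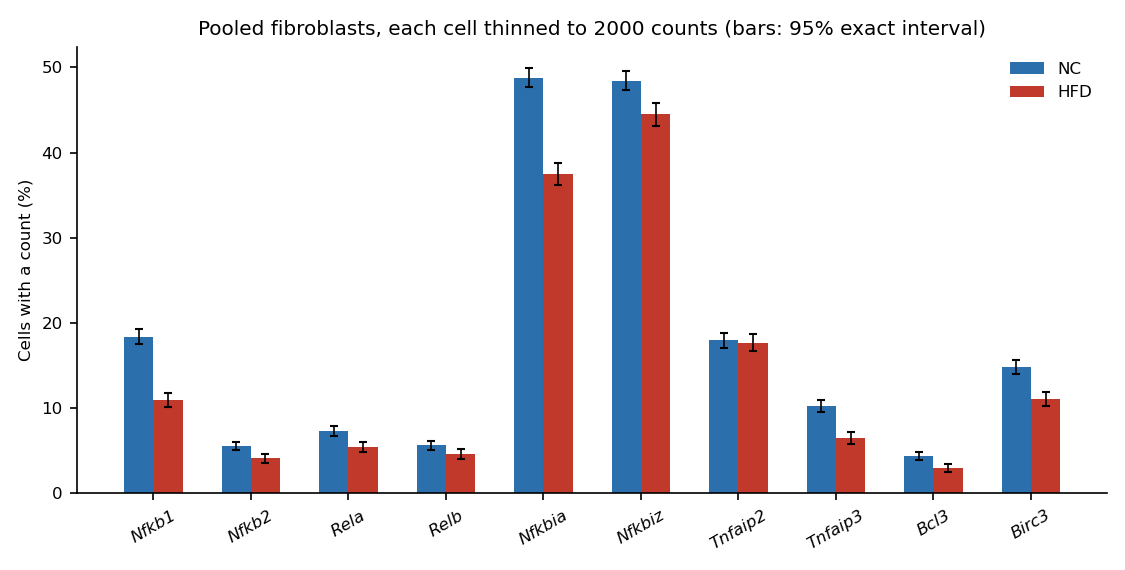
Percentage of pooled fibroblasts with a count of each gene after every cell was thinned to 2000 counts, NC in blue and HFD in red, with bars for 95% exact binomial intervals. Nfkb1 is found in 18.4% of NC and 10.97% of HFD cells, and Tnfaip2 in nearly the same share of both.

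At 2000 counts per cell, a pooled fibroblast held a count of 1.45 of the 10 genes on average in HFD and of 1.81 in NC. Cells with none of them made up 23.6% in HFD and 16.999% in NC, and cells with 3 or more made up 17.7 and 27.8%. The share with 3 or more was highest in Gas6 fibroblasts, at 33.3% in HFD and 46.2% in NC, and lowest in the class labelled pericytes, at 3.36 and 6.80%. In each of the 5 classes it was lower in HFD. The limit given above on the depth of thinned cells applies to these shares.

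Cells were also divided by a count of Il6, a target of the pathway, in a further thinning that was added after the values above were known. Il6 itself was found in 32.3% of HFD and 43.3% of NC Gas6 fibroblasts. Among NC Gas6 fibroblasts, Nfkb1 was found in 38.5% of the 867 cells with an Il6 count (35.3 to 41.9%) and 22.7% of the 1135 cells without (20.3 to 25.3%). Among HFD Gas6 fibroblasts it was found in 23.4% of 354 cells with Il6 (19.1 to 28.2%) and 12.6% of 741 without (10.3 to 15.2%). The share with Nfkb1 was thus lower in HFD among cells with Il6 and among cells without it, with the same limit on the depth of thinned cells. Nfkbia, Tnfaip2 and Tnfaip3 were also found more often in cells with Il6 in both libraries, with separate intervals. Nfkbiz was found in 64.4% of HFD Gas6 fibroblasts with Il6 (59.2 to 69.4%) and 55.3% without (51.7 to 58.95%). In NC Gas6 fibroblasts it was found in 61.4 and 59.2%, and these intervals overlapped. In the pooled fibroblasts Nfkbiz was found more often in cells with Il6 in both libraries, at 57.3 and 42.8% in HFD and 55.5 and 45.9% in NC, with separate intervals. The pooled split mixes classes in unlike shares. Gas6 fibroblasts were 867 of 1876 NC cells with Il6 and 1135 of 5989 without, and 354 of 916 and 741 of 4574 in HFD. Within Asc1 and within Pi16 fibroblasts Nfkbiz was also found more often with Il6 in both libraries, with separate intervals. In myofibroblasts the intervals overlapped. In Gas6 fibroblasts Bcl3 differed in NC alone, at 8.65% of cells with Il6 and 3.61% of cells without. For Rela, Relb, Nfkb2 and Birc3 the intervals of Gas6 fibroblasts with and without Il6 overlapped in both libraries. In the pooled fibroblasts Birc3 was found more often with Il6, at 16.8 and 9.60% in HFD and 19.7 and 13.5% in NC, with separate intervals. The same mix of classes applies. Within Asc1 fibroblasts Birc3 had separate intervals in both libraries, within Pi16 fibroblasts in HFD alone, and within myofibroblasts in neither.

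**Figure D4:**
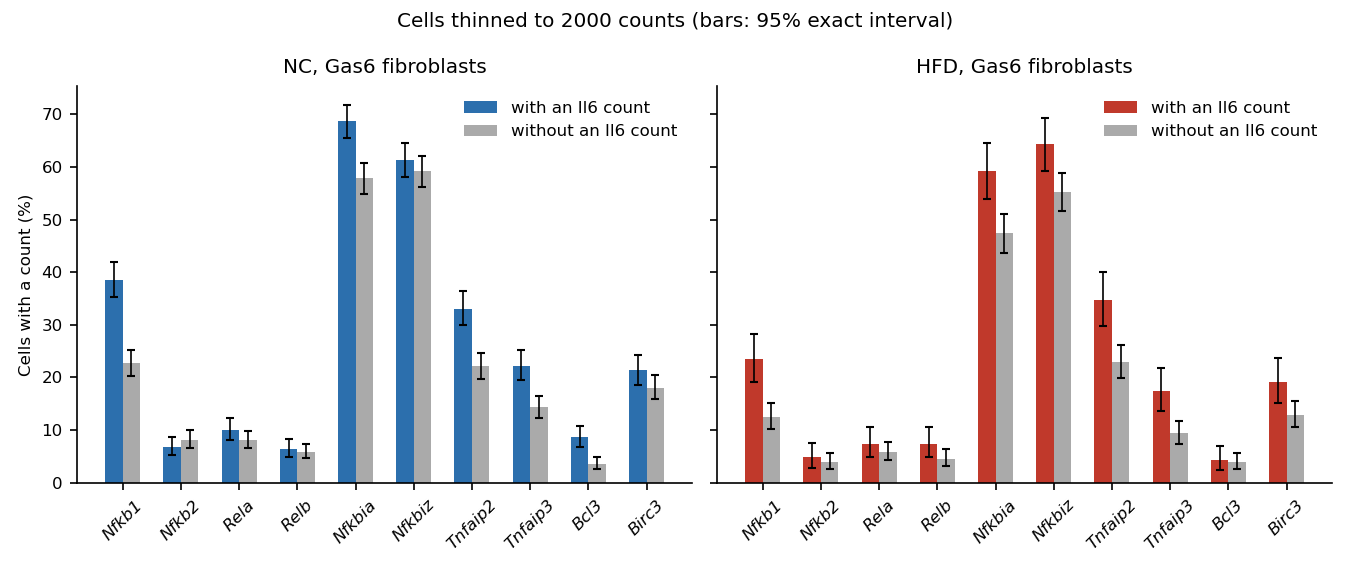
Percentage of Gas6 fibroblasts with a count of each gene, split into cells with (coloured) and without (grey) a count of Il6 after thinning to 2000 counts, NC on the left and HFD on the right, with bars for 95% exact binomial intervals. Nfkb1 is found in 38.5 and 22.7% of these NC cells and in 23.4 and 12.6% of these HFD cells.

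Other genes of the pathway were listed by role, with earlier results of these data known. Over all genes measured in the pooled fibroblasts, 4.75% were lower and 5.45% higher by a ratio of 1.5. A count of 0 or 1 in a short list is not read as a difference from these shares. In the pooled fibroblasts, 0 of 10 measured kinases and 0 of 12 further negative regulators were past a ratio of 1.5 in either direction, with list medians of −0.13 and 0.01 on the log2 scale. Of 3 measured other Rel and IkB genes, 0 were past it, and Nfkbib and Nfkbie, which encode further cytoplasmic inhibitors, had ratios of 0.763 (0.670 to 0.868) and 0.765 (0.572 to 1.02). Of 14 adaptors 1 was higher, Tradd, which links a tumour necrosis factor receptor to its kinases, at 23.0 and 14.01 CPM (1.64, 1.37 to 1.96). Of 12 receptors 2 were lower. Tnfrsf12a, the receptor of the cytokine TWEAK, was at 131 and 238 CPM (0.551, 0.519 to 0.584), and Il17ra, a receptor chain for interleukin 17, was at 8.74 and 14.9 CPM (0.588, 0.463 to 0.742). Of 4 measured ligands 1 was lower, the alarmin Il33, at 13.8 and 24.2 CPM (0.569, 0.472 to 0.685).

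Among 18 measured targets of the pathway, 6 were lower by a ratio of 1.5 and 0 higher, against 4.75 and 5.45% of all genes measured. Their median log2 ratio was −0.43. The targets, too, were listed with earlier results of these data known. The chemokine Cxcl2 had a ratio of 0.410 (0.354 to 0.474), Ccl7 of 0.444 (0.403 to 0.487), Cxcl1 of 0.596 (0.574 to 0.619) and Il6 of 0.624 (0.599 to 0.650). Not all targets were lower. The adhesion gene Icam1 was at 338 CPM in HFD and 335 CPM in NC (1.01, 0.967 to 1.05), and the transcription factor gene Irf1 at 214 and 198 CPM (1.08, 1.03 to 1.14). These 2 were chosen after their values were seen. Tissue handling is known to induce immediate early and stress genes as well as NF-kB feedback genes. Of 22 such genes measured, 1 was lower by a ratio of 1.5, the heat shock gene Hsph1 (0.443, 0.398 to 0.492), and 0 were higher by it. These counts stand against the same 4.75 and 5.45% of all genes. Of the 22, 11 were below a ratio of 1, and the median log2 ratio was −0.01. Fos, at 6550.2 and 5409 CPM, had a ratio of 1.21 (1.20 to 1.22), also chosen after its value was seen. The part of tissue handling in the NF-kB values was not tested.

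**Figure D5:**
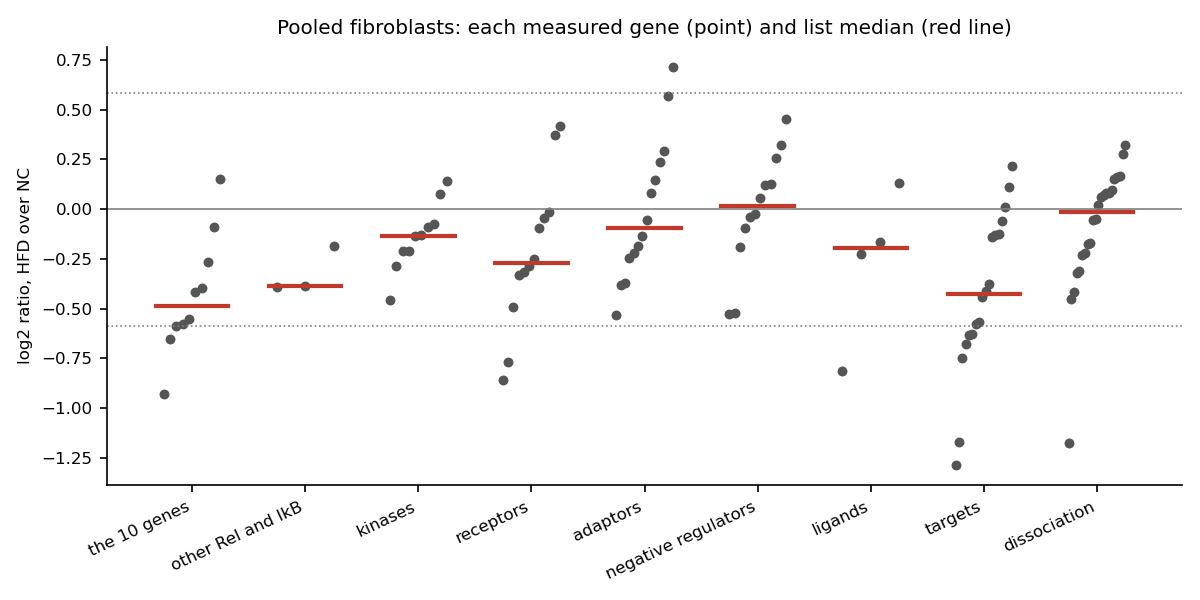
Log2 ratio of HFD to NC in the pooled fibroblasts for each measured gene (points) of the 10 NF-kB genes and of each list by role, with a red line at the list median and dotted lines at a ratio of 1.5 either way. The medians of the 10 genes (−0.49) and of the targets (−0.43) lie lowest, and those of the negative regulators (0.01) and dissociation genes (−0.01) lie near 0.

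Over the 10 levels of 5 classes in 2 libraries, the genes whose pattern was most like that of Nfkb1, among 4073 genes, were Fas, Gm43430, Nfkbia, Mt1 and Etf1, with Pearson correlations of log2(CPM + 1) of 0.989, 0.970, 0.950, 0.948 and 0.935. Those most like Nfkbia were Bcl10, Cop1, Nfkb1, Gna13 and Etf1, at 0.984, 0.953, 0.950, 0.950 and 0.949. The 10 levels share 2 libraries, so these values are a description. A finer column of the annotation labels 251 HFD and 386 NC cells of the Asc1 class as SNAT2 fibroblasts and 2742 and 3548 as Asc1 fibroblasts. Nfkb1 was at 168 and 332 CPM in the SNAT2 cells and at 77.2 and 129.6 CPM in the Asc1 cells, and the ratios were 0.507 (0.343 to 0.734) and 0.595 (0.526 to 0.674), with overlapping intervals. Tnfaip2 was at 305 and 197 CPM in the SNAT2 cells (1.55, 1.09 to 2.19).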

How the data were processed

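Cells were profiled with a 10x Genomics single-cell kit by a commercial provider, per the labels' protocols. STAR and the mm39 build are named in the submitters' processing notes, and molecule counting is not given in the sources used here. Per cell, the deposited gene values are on a log2 scale, of CPM plus 1. Deposited totals per cell are estimated counts, and the number of detected genes is a deposited count. Mitochondrial and ribosomal shares are in percent, per the file headers. Where column names occur more than once, the later was used.

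Each value was turned back into a count with the total of its cell. Within 0.01, 98.8% of HFD and 98.96% of NC values were whole, and all were rounded. Symbols were found for 20180 of 21014 identifiers. Counts were summed per library and class. A positive cell often held several counts even of rare genes, so exact Poisson intervals used effective counts, the count divided by 4.85 in HFD and 3.98 in NC. These factors are medians, over genes seen in 0.1 to 1% of cells, of the sum of squared counts over the summed counts. They were applied to every gene, commoner ones included. A pooled fibroblast with a count of Nfkbia held 9.78 counts on average in HFD and 9.55 in NC, above these factors. For such genes the intervals of levels and ratios may be too narrow. A gene counted as measured in a comparison from a sum of 50 effective counts. A ratio of 1.5 was called by size, with no test. Shares have Clopper-Pearson intervals. Intervals of levels and ratios cover counting error only, without the spread between cells. No interval covers animals or libraries. The kept cells held 71015132 HFD and 69940866 NC counts. No doublet caller was run. The calculation was tested on simulated data, with scipy 1.17.1 and numpy 2.4.6. The simulated counts were drawn with the same factors, so that test cannot show whether the factors suit these genes.

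The 10 genes and the lists were chosen with earlier results of these data known. From each list, up to 4 genes past the ratio of 1.5 were named, those with the interval bound farthest from 1, and for Nfkb1 and Nfkbia the 5 genes of most similar pattern with at least 50 CPM in a class. Alternatives covered cell filters, scaling, weighting, cells with most counts, classes left out, the ratio, the minimum count and the motif.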

Additional observations from a re-analysis of the deposited data

Results flagged for a closer look

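Tnfaip2 is listed here because its HFD over NC ratio had opposite directions in classes of the same libraries, with intervals on either side of 1. The ratio was 1.23 in Asc1 and 1.16 in Gas6 fibroblasts, against 0.651 (0.437 to 0.981) in the class labelled pericytes. The difference between classes was not tested. The pericyte value came from 55 HFD and 31 NC cells with a count, and 10 of these NC cells held 75.0% of the counts. Without the 10 cells of each library with most counts of Tnfaip2 the pericyte ratio turned to 1.19. Those cells held 52.1% of the HFD but 75.0% of the NC counts, so the cut by itself raises the ratio. It cannot show whether the opposite direction rests on a few cells.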

How the results depend on the processing

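No paired analysis was possible because there is 1 library per diet, and no replicate could be left out for the same reason. Of 120 alternative values of the ratios in the pooled fibroblasts, 109 stayed within the interval of the reported ratio, 11 moved outside it and 0 reversed. Nfkb1 ran from 0.507 to 0.601 and Tnfaip2 from 1.05 to 1.19. The number of genes lower by size in the pooled fibroblasts was 3, 2 with the fibroblast classes weighted equally, and 1 without the Gas6 class. It was 4, with Nfkb2 added, with TMM or median of ratios scaling, without the 10 richest cells of each library, and without the Pi16 class. With totals that left out mitochondrial and ribosomal protein genes, or as a mean over cells, it was 2. No share over all genes was computed for these settings. With a threshold of 0.8 for the HFD over NC ratio it was 7 in the pooled fibroblasts, against 13.4% of all measured genes. In Asc1, Gas6 and Pi16 fibroblasts, myofibroblasts and the class labelled pericytes it was then 6, 6, 5, 6 and 4, against 15.5, 16.3, 17.2, 21.2 and 16.1% of genes. With a threshold of 0.5 it was 0 in the pooled fibroblasts, Asc1, Gas6 and Pi16 fibroblasts and the class labelled pericytes, and 1 in myofibroblasts, against 1.08 to 1.8% of genes. Without the 10 cells per library that held most counts of a gene it was 4 in Pi16 fibroblasts and 1 in the class labelled pericytes, where the Tnfaip2 ratio turned to 1.19. The 10 cells held unequal parts of the HFD and NC counts, so ratios after this cut are not like for like. The cause of these changes was not tested. With a minimum of 200 effective counts it was 1 in myofibroblasts, Nfkb1, where only Nfkb1, Nfkbia and Nfkbiz were then measured. In the class labelled pericytes it was 1, Nfkbia, where only Rela, Nfkbia and Nfkbiz were. No share over all genes was computed at this minimum, so these counts are not read as a drop. A stricter filter on detected genes and mitochondrial share gave 1 in the class labelled pericytes, whose median mitochondrial shares were 6.13 and 5.72%. In myofibroblasts it gave 3, Rela, Nfkbia and Tnfaip3, of which Tnfaip3 was lower by size before. A looser kB motif was found in 6 of the 7 genes with a promoter window (26.8% of all windows) and a stricter one in 3 (0.332%).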
